A study of Mus musculus with 3 samples.

Results

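The immediate early genes, the Krüppel-like factor (KLF) genes and the dual specificity phosphatase (DUSP) genes were examined in sorted renin cells of the mouse kidney. Members were taken by symbol: names starting with Fos, Klf, Dusp, Zfp36 or Gadd45, or with Egr, Ier or Btg and a digit, together with Jun, Junb, Jund, Atf3, Myc and Socs3. The rule found 81 probe sets of 78 genes, out of 35557 probe sets and 19938 named genes in all. Of the 78 genes, 71 belong to the families meant and 7 share only the first letters of a name. Another 2 probe sets annotated to both Btg3 and a second gene were left out.

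The series has 1 group of 3 arrays, replicates 2, 4 and 5. Each holds RNA of YFP-positive cells from the renal cortex of adult male Ren1c-YFP mice, a transgenic line in which yellow fluorescent protein reports renin expression, on an unspecified strain background. All animals drank captopril, a blocker of angiotensin-converting enzyme, at 0.5 mg/ml and ate a low-salt diet for 2 weeks, and the cortex was digested for 15 minutes at 37 °C before the sort. Untreated, YFP-negative and undigested samples were not analysed here, so levels in the intact kidney and levels after digestion cannot be told apart, and neither can fewer cells of a type and less RNA per cell. The labels say that samples were not pooled without naming an animal for each, so the p-values rest on the spread among the 3 samples, which may be technical.

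Immediate early genes are transcribed within minutes of a stimulus, without new protein synthesis, through factors that are already present in the cell, mainly serum response factor (SRF) with its ternary complex partners and CREB, the factor activated by cyclic AMP. Many of their products are transcription factors of the AP-1, EGR and KLF families. Others end the response: DUSP enzymes dephosphorylate MAP kinases, ZFP36 and BTG proteins bring mRNAs to the CCR4-NOT deadenylase, and SOCS3 blocks cytokine receptors. In renin cells cyclic AMP is the main stimulus of renin release, and the same messenger is known to act on several of these genes in other cells.

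The promoter sequences of 4 genes are shown because they carry elements through which this class is known to respond to cyclic AMP or SRF. They were also chosen by level. Btg2, Dusp1 and Zfp36 were the family genes above background found with a full cAMP response element or an SRF site. Fos was not above background, though it was called with either of 2 lower background levels. Dusp5, Dusp8, Egr2 and Klf8 hold such a site too, were not above background and are not shown. The choice of sequences therefore cannot link an element with a level. The sequences are RefSeq's (GRCm38.p6) and run 250 bases up to the start of the gene, written 5′ to 3′ on the gene's strand. Capitals mark a cAMP response element or its core (TGACG, searched on both strands) and, in Zfp36, a CArG box, the SRF site.
Btg2, chr1:134079156-134079405, minus strand: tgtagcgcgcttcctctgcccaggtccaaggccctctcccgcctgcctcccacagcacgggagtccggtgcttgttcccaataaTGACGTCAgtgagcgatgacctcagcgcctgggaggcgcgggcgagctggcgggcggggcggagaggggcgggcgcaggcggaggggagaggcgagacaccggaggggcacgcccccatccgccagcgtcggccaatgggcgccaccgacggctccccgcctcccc
Dusp1, chr17:26508473-26508722, minus strand: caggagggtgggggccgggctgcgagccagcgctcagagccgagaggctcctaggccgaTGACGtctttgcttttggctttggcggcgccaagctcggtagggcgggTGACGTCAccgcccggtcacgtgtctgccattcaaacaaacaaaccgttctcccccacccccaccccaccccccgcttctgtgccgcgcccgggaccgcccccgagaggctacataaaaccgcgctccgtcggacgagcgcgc
Zfp36, chr7:28379229-28379478, minus strand: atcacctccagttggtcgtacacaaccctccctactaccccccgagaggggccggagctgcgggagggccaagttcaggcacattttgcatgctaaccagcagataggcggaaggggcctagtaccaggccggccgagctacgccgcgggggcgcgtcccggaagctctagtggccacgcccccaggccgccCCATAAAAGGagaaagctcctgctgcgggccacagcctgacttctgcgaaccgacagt
Fos, chr12:85473640-85473889, plus strand: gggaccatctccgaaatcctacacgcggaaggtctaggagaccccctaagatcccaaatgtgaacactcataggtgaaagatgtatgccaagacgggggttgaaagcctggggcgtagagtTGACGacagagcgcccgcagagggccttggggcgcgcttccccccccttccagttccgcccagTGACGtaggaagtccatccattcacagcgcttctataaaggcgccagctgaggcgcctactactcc

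Btg2 and Dusp1 each held a full cAMP response element (TGACGTCA, which contains the core on each strand). Counted from the start of the gene, with -1 the last base before it, the element lay at -166 to -159 in Btg2 and at -143 to -136 in Dusp1. Zfp36 held a CArG box at -58 to -49. Fos had 2 cores, at -129 to -125 and at -66 to -62, and no full element and no CArG box in this window. Promoters were listed for 57 of the 78 genes, and motifs were searched in windows of 300 bases, 250 before the start and 50 after it. The full element was found in 4 of the 57 (7.02%: Btg2, Dusp1, Dusp8 and Zfp367), against 2.03% of all 27025 genes with a listed promoter. A CArG box was found in 4 (7.02%: Dusp5, Egr2, Klf8 and Zfp36), against 1.81% of all genes. The EGR site (GCGNGGGCG, either strand) was found in 15 (26.3%), against 6.27%, and the GC box (GGGCGG, either strand, which can overlap the EGR site) in 40 (70.2%), against 38.2%. The core TGACG was found in 23 (40.4%), against 23.0%. Split by level, the EGR site was in 11 of 28 listed members above background and in 4 of 29 others, the GC box in 23 and 17, the full cAMP element in 3 and 1, its core in 10 and 13, and the CArG box in 1 and 3. These splits were not tested. All genes were not split by level in the same way, so the splits cannot be read as particular to the members. AP-1 sites (TGANTCA) were found in 3 (5.26%: Dusp13, Klf9 and Zfp36l1), against 8.97%. A match describes the letters of the window and not a bound site.

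Signals are log2 values, given for replicates 2, 4 and 5 in that order, with the mean ± SD of n = 3. A gene was called above background when limma's one-sided test placed its mean above a level set on each array by its olfactory receptor genes (6.20, 6.32 and 6.50), at an adjusted p under 0.05 over all genes. Probe affinity also sets a signal, so genes are not ranked against each other by it. Of the 78 genes 40 were called (51.3%), and of the 71 family genes 35 (49.3%), against 37.3% of all 19938 genes. All genes include the 1027 olfactory receptor genes that set the level. Most of these lie under it by construction, which lowers the share of all genes. At an unadjusted p under 0.05 the counts were 45 of 78 and 40 of 71, against 8086 of all 19938 genes. With a stricter level, the 99th percentile of the olfactory receptor signals, 11 of the 78 and 9 of the 71 were called. Of all 19938 genes 3303 were called with it, which is the larger share. The median of the mean signals was 6.83 over the 78 genes and 6.33 over all genes. The sorted samples carried the renin cell markers (13 of 13 called) and the smooth muscle and mural markers (14 of 14), although renin's own transcripts were not analysed here. They also carried proximal tubule (12 of 12), thick ascending limb (8 of 8) and endothelial markers (11 of 15). The median signal was 8.66 over the renin cell markers and 9.44 over the smooth muscle and mural markers. It was 10.75 for proximal tubule, 10.06 for thick ascending limb and 6.93 for endothelial markers. Which cells each transcript came from was not tested.

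**Figure D1:**
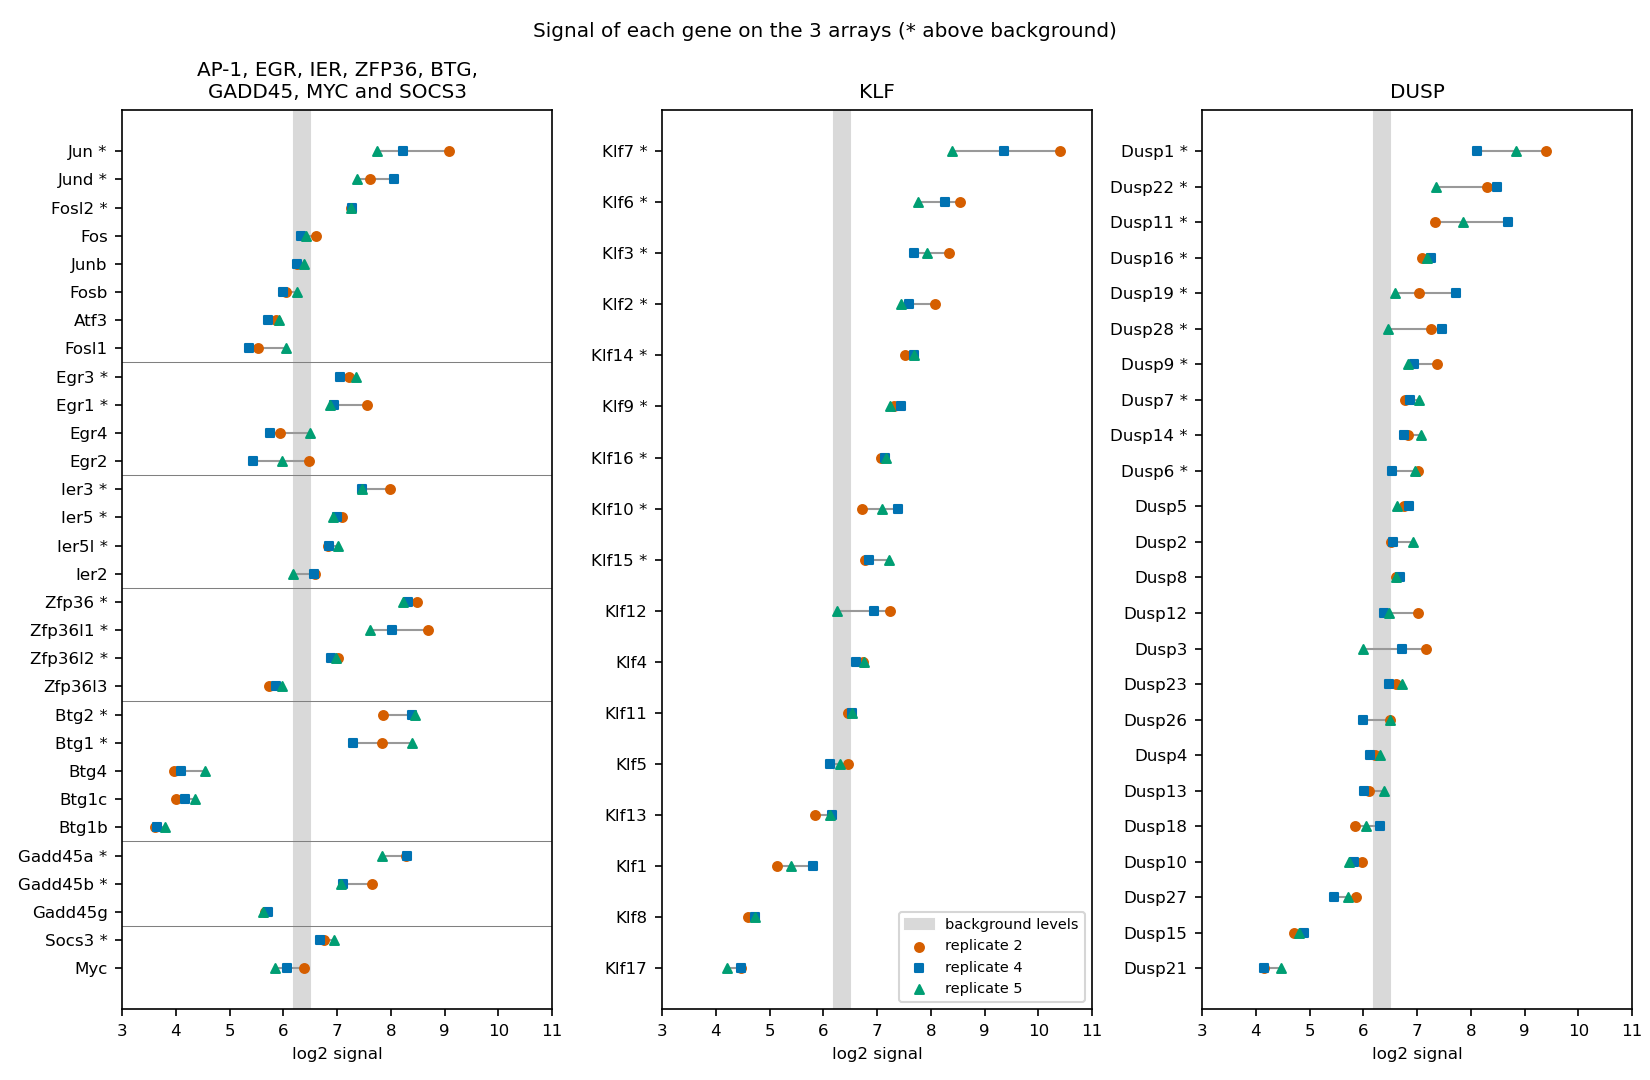
Log2 signal (x axis) of the 71 family genes (y axis) on the 3 arrays. Points are arrays, the line joins the lowest and highest array, the grey band spans the 3 arrays' background levels (6.20 to 6.50), and an asterisk marks the genes called above background. Jun, Klf7, Dusp1 and Zfp36 lie clear of the band, while Fos, Junb, Ier2 and Egr2 lie in or near it.

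Among the AP-1 genes, whose leucine zipper proteins pair to bind DNA, Jun, Jund and Fosl2 were above background and the other 5 were not (3 of 8 called, 37.5%, near the share of all genes). Jun, the founding member, had log2 signals of 9.08, 8.23 and 7.75 (8.35 ± 0.67, limma adjusted p = 0.000736). Jund, known for steady expression in resting cells, had 7.61, 8.05 and 7.37 (7.68 ± 0.35, limma adjusted p = 0.00114). Fosl2, which encodes FRA2, had 7.27, 7.27 and 7.27 (limma adjusted p = 0.00217), with identical deposited values in replicates 2 and 5. Every array of these 3 genes lay above its level. Fos itself, the gene most used as a sign of recent stimulation, had 6.60, 6.33 and 6.41, a mean 0.11 above the level (limma adjusted p = 0.552). It was called with lower levels, the 90th percentile of olfactory receptor signals (limma adjusted p = 0.0173) or that of vomeronasal receptor genes (limma adjusted p = 0.00026). Junb, at 6.25, 6.26 and 6.38, exceeded the level on 1 array only and was also called with the 90th percentile level (limma adjusted p = 0.0406). Fosb (6.10 ± 0.14), the stress factor gene Atf3 (5.83 ± 0.11) and Fosl1 (5.52, 5.35 and 6.04) were under the level on all arrays. The 3 calls held without any 1 replicate, and with a stricter level, the 99th percentile of the olfactory receptor signals, Jun alone was called.

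Of the 4 EGR zinc finger genes 2 were called (50%, against 37.3% of all genes). Egr3 had signals of 7.23, 7.06 and 7.35 (7.21 ± 0.14, limma adjusted p = 0.00271). Egr1, the best known serum-induced member, had 7.56, 6.95 and 6.86 (7.12 ± 0.38, limma adjusted p = 0.0141), highest in replicate 2, and lost its call without that array (limma adjusted p = 0.0844). Egr4 (6.06 ± 0.39) and Egr2, known from hindbrain and Schwann cells, were not called. Egr2 had 6.48, 5.43 and 5.98 and exceeded the level in replicate 2 alone. Neither Egr1 nor Egr3 was called with the 99th percentile level.

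Of the 4 IER genes Ier3, Ier5 and Ier5l were called (75%, against 37.3% of all genes). Ier3, an apoptosis regulator, had signals of 7.99, 7.46 and 7.46 (7.64 ± 0.30, limma adjusted p = 0.00128), with identical deposited values in replicates 4 and 5. Such ties to 5 decimals occurred in 62 to 74 of 35557 probe sets per pair of arrays. Ier5, a regulator of heat shock factor, had 7.095, 6.997 and 6.927 and Ier5l 6.83, 6.84 and 7.02. Ier5 was not called without replicate 2 (limma adjusted p = 0.0628), and Ier5l without replicate 2 or 4 (limma adjusted p = 0.0673 and 0.0747). Ier2, a nuclear protein gene induced by serum together with Fos, had 6.59, 6.58 and 6.18 and was under the level in replicate 5. It was not called (limma adjusted p = 0.59), but was with the level at the 90th percentile of olfactory receptor signals (limma adjusted p = 0.0273).

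KLF genes were above background in 9 of 17 cases (52.9%, against 37.3% of all genes). The proteins share 3 zinc fingers that bind GC-rich DNA and differ in the cofactors they recruit. In the group known mainly as activators Klf7, Klf6 and Klf2 were called and Klf4, Klf5 and Klf1 were not. Klf7, known from sensory neuron development in the mouse, had 10.40, 9.37 and 8.39 (9.39 ± 1.01, limma adjusted p = 0.000274). Its signal fell by about 1 log2 unit from each array to the next, 2.01 in all, so its level was uncertain. It was also called with the 99th percentile level. With the higher level from keratin-associated protein genes its mean lay 0.72 above without a call. Klf6, a ubiquitous injury-induced member, had 8.54, 8.26 and 7.77 (8.19 ± 0.39, limma adjusted p = 0.000418). Klf2, the flow-induced factor of endothelium, had 8.08, 7.60 and 7.45 (7.71 ± 0.33, limma adjusted p = 0.00116). All 3 were highest in replicate 2 and lowest in replicate 5. Klf4, which represses the contractile programme of smooth muscle, had 6.74, 6.60 and 6.75, above the level on each array without passing the test (limma adjusted p = 0.066), and did pass with no variance trend (limma adjusted p = 0.0473). Klf5, a proliferation-promoting factor of smooth muscle and epithelium, was at 6.30 ± 0.17. Klf1, the erythroid member, was at 5.45 ± 0.35 and under the level on every array, and 0 of 3 erythroid markers were called by limma (0 also at an unadjusted p under 0.05).

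In the group of KLF repressors that bind CtBP, Klf3 was called, with 8.34, 7.68 and 7.93 (7.98 ± 0.33, limma adjusted p = 0.000472). Klf12 fell under the level in replicate 5 (7.23, 6.94 and 6.25, limma adjusted p = 0.114) and was called without that array (limma adjusted p = 0.00575), and Klf8 was at 4.68 ± 0.08. In the group that binds SIN3A, Klf14 had 7.53, 7.68 and 7.68 (7.63 ± 0.09, limma adjusted p = 0.000566) and Klf9, a glucocorticoid-induced gene, 7.31, 7.44 and 7.24 (7.33 ± 0.10, limma adjusted p = 0.00199). Their arrays lay within 0.16 and 0.21 log2 units. Klf16 (7.13 ± 0.05) and Klf10 (7.07 ± 0.33), a TGF-beta-induced gene, were also called, and Klf11 (6.51 ± 0.04) and Klf13 (6.04 ± 0.17) were not. Klf15, a regulator of metabolism and of podocytes, was called at 6.95 ± 0.23, and Klf17 was under the level on every array, at 4.48, 4.47 and 4.21. Without replicate 4, Klf10 and Klf15 missed the threshold (limma adjusted p = 0.0823 and 0.0527). With the 99th percentile level Klf3, Klf6 and Klf7 were called.

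DUSP genes were above background in 10 of 24 cases (41.7%, close to the share of all genes). Of the 10 MAP kinase phosphatases 5 were called (50%): Dusp1, Dusp6, Dusp7, Dusp9 and Dusp16. Dusp1, the nuclear phosphatase of p38 and JNK and itself an immediate early gene, had 9.41, 8.11 and 8.84 (8.79 ± 0.65, limma adjusted p = 0.000202). It was the DUSP gene still called with the 99th percentile level. Dusp16, a JNK and p38 phosphatase, had 7.10, 7.27 and 7.19 (7.19 ± 0.08, limma adjusted p = 0.00302), a spread far smaller than that of Dusp1. The cytoplasmic ERK phosphatases Dusp6, Dusp7 and Dusp9 lay 0.50, 0.55 and 0.71 above the level. All 3 missed the threshold without replicate 2 (limma adjusted p = 0.183, 0.0627 and 0.0908), and Dusp6 and Dusp7 also without replicate 4 (limma adjusted p = 0.0535 and 0.0825). The nuclear ERK phosphatases Dusp5 (6.74 ± 0.12, limma adjusted p = 0.0569), Dusp2 (6.66 ± 0.22, limma adjusted p = 0.0809) and Dusp4 (6.22 ± 0.09) were not called, nor were the JNK and p38 phosphatases Dusp8 (6.63 ± 0.05) and Dusp10 (5.84 ± 0.12). Dusp5 passed without replicate 5 and with no variance trend (limma adjusted p = 0.0224 and 0.0486).

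Of the 14 atypical DUSP genes, which mostly lack a MAP kinase docking domain, 5 were called (35.7%, against 37.3% of all genes). Dusp22, a JNK pathway regulator, had 8.30, 8.48 and 7.36 (8.04 ± 0.60, limma adjusted p = 0.00118). Dusp11, which removes phosphates from RNA 5′ ends, had 7.34, 8.69 and 7.86 (7.96 ± 0.68, limma adjusted p = 0.00111). Dusp19 had 7.04, 7.73 and 6.59 and Dusp28 7.26, 7.46 and 6.46, the last under its array's level. These 4 genes were highest in replicate 4, where tubule markers were also higher. Median differences from the other arrays were 0.39 for the 12 called proximal tubule and 0.57 for the 8 called thick ascending limb markers. For the 3 called of 13 macrophage and dendritic markers the median was 0.45. The summed log2 signal of all 13 was 77.7 in replicate 4 and 79.2 in replicate 5. The part of these cell types in the values was not tested. Dusp14 (6.89 ± 0.17) was the fifth called. Dusp14, Dusp19 and Dusp28 lost their calls without replicate 2 (limma adjusted p = 0.0733, 0.0948 and 0.162) and without replicate 4 (limma adjusted p = 0.0656, 0.135 and 0.111), and Dusp28 also with no variance trend (limma adjusted p = 0.05). The 9 uncalled genes were Dusp3, Dusp12, Dusp13, Dusp15, Dusp18, Dusp21, Dusp23, Dusp26 and Dusp27, with means from 4.25 (Dusp21, at 4.15, 4.14 and 4.46) to 6.63. Dusp3 had 7.16, 6.72 and 5.99 and was called without replicate 5 (limma adjusted p = 0.0166).

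Of the genes that act on mRNA decay and growth arrest, 3 of 4 ZFP36 (75%) and 2 of 5 BTG genes (40%) were called. The share of all genes was 37.3%. Zfp36, which encodes tristetraprolin, the destabilizer of AU-rich cytokine mRNAs, had 8.48, 8.31 and 8.23 (8.34 ± 0.13, limma adjusted p = 0.000135). Zfp36l1 had 8.69, 8.02 and 7.60 (8.11 ± 0.55, limma adjusted p = 0.00087) and Zfp36l2 7.01, 6.88 and 6.99 (6.96 ± 0.07, limma adjusted p = 0.0106). All 3 were highest in replicate 2. Zfp36l2 missed the threshold without replicate 2 or 4 (limma adjusted p = 0.0664 and 0.0522). Zfp36l3, a rodent placental gene, had 5.73, 5.85 and 5.97 and was under the level. Btg2, an antiproliferative gene that p53 induces, had 7.86, 8.39 and 8.44 (8.23 ± 0.32, limma adjusted p = 0.000151), and Btg1 had 7.83, 7.30 and 8.39 (7.84 ± 0.55, limma adjusted p = 0.000796). Both were highest in replicate 5, unlike Jun, Klf6 and Zfp36l1, which were lowest there. Btg4, an oocyte gene, was at 4.20 ± 0.31, and Btg1c and Btg1b were at 4.18 ± 0.18 and 3.68 ± 0.10 (3.61, 3.64 and 3.80).

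GADD45 proteins bind the MAP kinase kinase kinase MTK1 and PCNA under stress. Gadd45a, the p53 target, had 8.27, 8.29 and 7.84 (8.13 ± 0.26, limma adjusted p = 0.000301). Gadd45b had 7.65, 7.12 and 7.08 (7.28 ± 0.32, limma adjusted p = 0.00524), and Gadd45g, at 5.66, 5.72 and 5.62, was under the level on each array. Socs3, the inhibitor of JAK kinases, had 6.75, 6.68 and 6.94 (6.79 ± 0.14, limma adjusted p = 0.0296) on 1 probe set and 5.91, 5.91 and 5.74 on the other, so its call rested on the probe set taken. It was also lost without replicate 2 or 4 (limma adjusted p = 0.127 and 0.113). Myc, the growth regulator, had 6.38, 6.07 and 5.85 and exceeded the level in replicate 2 alone. The other genes with 2 probe sets were Dusp8 (means of 6.63 and 6.44) and Dusp12 (6.63 and 5.53), neither of which was called.

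The 7 genes that share only a prefix are of other kinds. Ier3ip1 (10.05 ± 0.32), an endoplasmic reticulum protein gene, Gadd45gip1 (7.42 ± 0.12), a mitochondrial ribosomal protein gene, and the zinc finger genes Zfp362 (7.54 ± 0.07), Zfp366 (6.85 ± 0.29) and Zfp367 (8.16 ± 0.33) were called. Zfp365 (5.90 ± 0.14) and Zfp369 (6.35 ± 0.11) were not, and Zfp366 missed the threshold without replicate 2 or 4 (limma adjusted p = 0.24 and 0.0601). Of all 40 calls 26 held without each replicate in turn. The same share was not computed for the 7437 calls over all genes. Without replicate 2 the counts were 28 members and 6051 of all genes. They were 29 and 6400 without replicate 4, and 43 and 7806 without replicate 5.

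**Figure D2:**
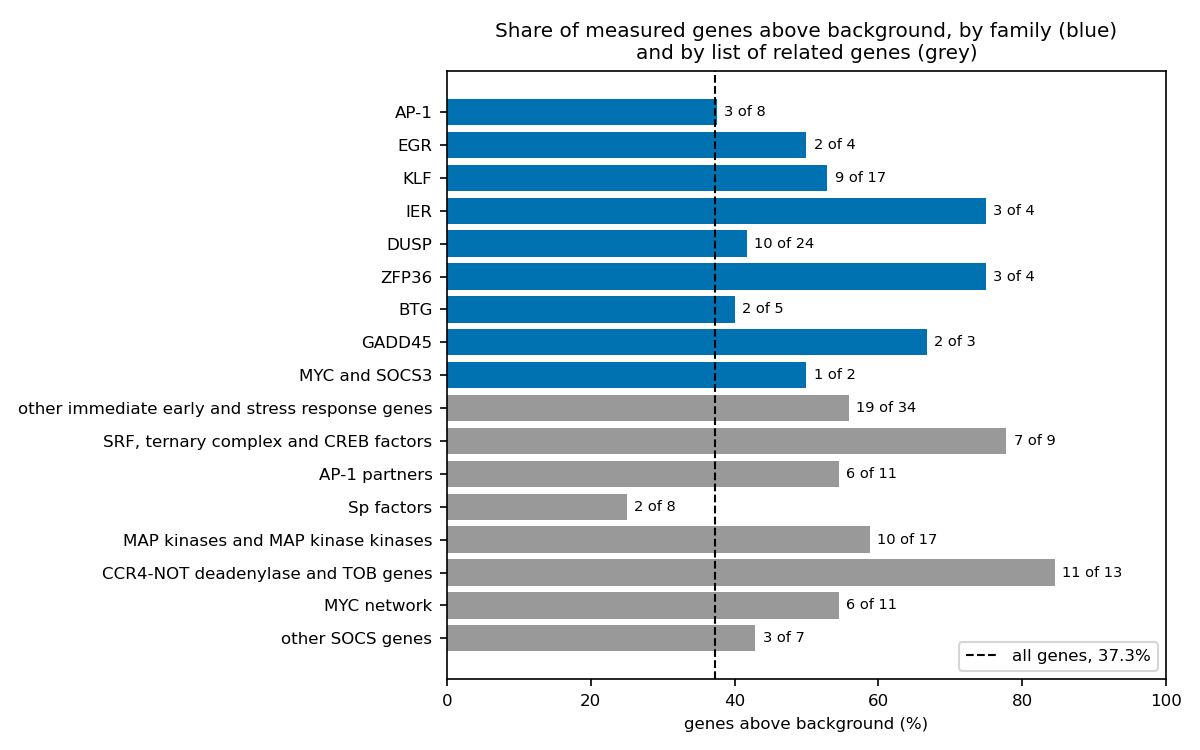
Share of measured genes called above background (x axis, percent) in each family (blue bars) and in each list of related genes (grey bars), with counts. The dashed line is the 37.3% of all genes. DUSP (10 of 24) and AP-1 (3 of 8) lie near it, and CCR4-NOT and TOB genes (11 of 13) and SRF and CREB factors (7 of 9) lie above it.

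Genes that act before, beside and after these families were measured in the same fit. Over 8 lists 64 of 110 related genes were called (58.2%, against 37.3% of all genes), with a median signal of 7.01. Of the factors known to switch on immediate early genes 7 of 9 were called, among them the cyclic AMP effectors Creb1 (9.03, 9.33 and 8.64) and Atf1 (8.92 ± 0.41) and the ternary complex genes Elk3 (8.28 ± 0.50) and Elk4 (7.55 ± 0.17). Srf (6.95 ± 0.22) was called, and the SRF coactivator gene Mrtfa (6.27 ± 0.09) was not. Among AP-1 partners 6 of 11 were called, including Mafg (8.72 ± 0.20), Atf7 (8.56 ± 0.54), Atf2 (8.53 ± 0.55) and Atf4 (8.20 ± 0.28), and Jdp2 (6.06 ± 0.11) was not. Of 8 Sp factors, the relatives of the KLF proteins, only Sp3 (8.16 ± 0.09) and Sp1 (7.44 ± 0.25) were called (25%). Sp8 was at 5.20 ± 0.07.

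Of 17 MAP kinase and MAP kinase kinase genes, whose products the DUSP enzymes act on or which stand before them, 10 were called. That was 58.8%, against 37.3% of all genes. The called genes included the JNK gene Mapk9 (8.11 ± 0.21), its activator Map2k4 (7.61 ± 0.41), the p38 gene Mapk14 (7.56 ± 0.33) and Map2k2 (7.29 ± 0.17). Mapk10 was at 5.29 ± 0.08. Of 13 genes of the CCR4-NOT deadenylase and its TOB adaptors 11 were called, with Cnot1, the scaffold, at 10.61 ± 0.39, Tob1 at 10.30 ± 0.36, the catalytic subunit gene Cnot7 at 9.43 ± 0.54 and Cnot3 at 8.56 ± 0.45, and Cnot9 at 6.32 ± 0.52 was not. Cnot6, a catalytic subunit gene, differed most between arrays in this list, by 1.24 log2 units. In the MYC network 6 of 11 were called (54.5%), with the MYC partner Max at 11.16, 10.84 and 9.85. The antagonist genes Mnt (7.71 ± 0.19) and Mxd4 (7.57 ± 0.18), and Mlxipl at 7.56 ± 0.41, were also called, while Mycl (5.92 ± 0.11) was not. Of 7 other SOCS genes Socs5 (8.45 ± 0.21), Socs4 (7.59 ± 0.19) and Socs7 (6.95 ± 0.24) were called (42.9%). Socs2 was at 6.36 ± 0.16.

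Of 34 measured genes on a list of other immediate early and stress response genes 19 were called (55.9%, against 37.3% of all genes). Id2, an inhibitor of basic helix-loop-helix factors, was at 10.26 ± 0.45 and Errfi1, a feedback inhibitor of the EGF receptor, at 9.65 ± 0.60. Ccn1, a matricellular SRF target, had 10.54, 8.94 and 9.41, and Mcl1, a survival gene, was at 9.15 ± 0.28. Nr4a2, an orphan nuclear receptor gene, had 8.17, 6.67 and 7.96, and Nr4a3, of the same receptor family, was not called at 4.83 ± 0.16. Ccn1 and Nr4a2 differed most between arrays among the called genes of the list, and both were highest in replicate 2.

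Spread between the samples was compared with that of all genes. For the 40 called members the median SD between arrays was 0.30 log2 units, against 0.27 over all 7437 called genes. The highest and lowest array were more than 1 log2 unit apart in 8 of the 40 (20%), against 13.7% of all called genes. They were Klf7 (2.01), Dusp11 (1.35), Jun (1.33), Dusp1 (1.30), Dusp19 (1.14), Dusp22 (1.13), Btg1 (1.09) and Zfp36l1 (1.09). All arrays lay within 0.25 log2 units in 12 of the 40. They were Fosl2, Klf9, Klf14, Klf16, Ier5, Ier5l, Dusp7, Dusp16, Zfp36, Zfp36l2 and the prefix-only genes Zfp362 and Gadd45gip1. The same share was not computed over all called genes, so these 12 cannot be called unusually steady. Without replicate 2 the median SD of the 40 members was 0.14, against 0.23 for all called genes, and 3 members (7.5%) differed by over 1 log2 unit, against 7.11% of all called genes. Without replicate 4 it was 0.30, against 0.24, and without replicate 5 it was 0.25, against 0.18, and 3 members (7.5%) again differed by over 1 log2 unit in each case, against 7.8% of all called genes without replicate 4 and 3.78% without replicate 5.

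**Figure D3:**
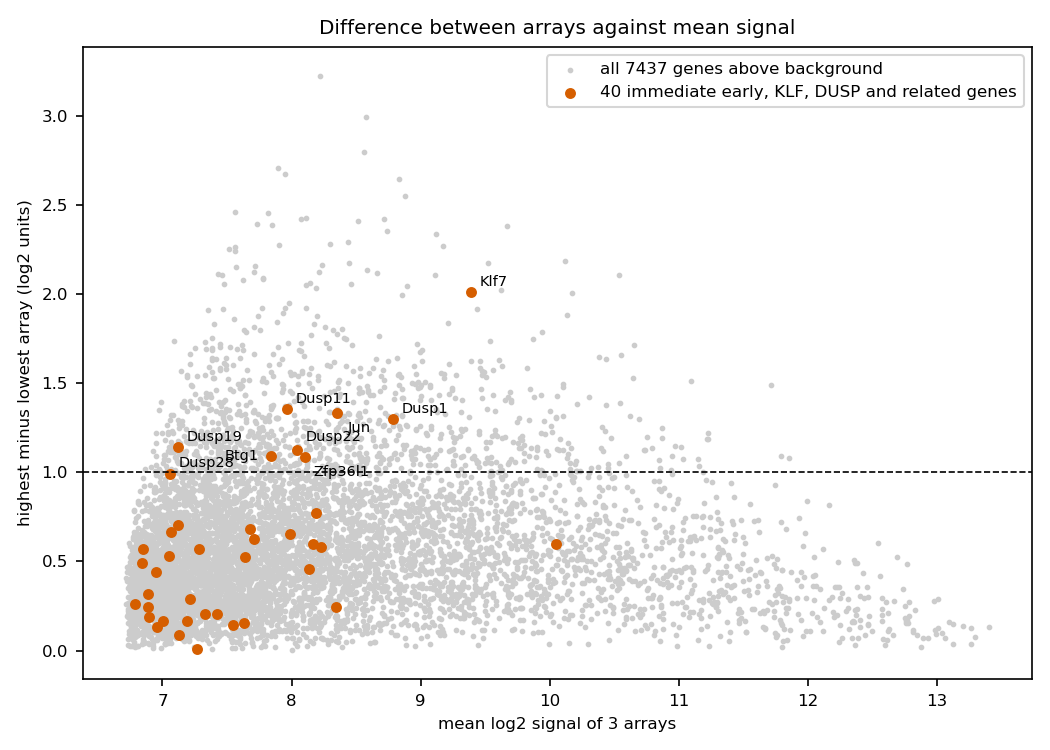
Difference between the highest and the lowest array (y axis, log2 units) against the mean log2 signal (x axis) for the 40 called members (orange) and all 7437 genes above background (grey). The dashed line marks 1 log2 unit. Klf7 stands highest at 2.01, and 8 members lie above the line.

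The arrays did not rank these genes in one way. Of the 40 called members 19 were highest in replicate 2 (47.5%), 12 in replicate 4 (30.0%) and 9 in replicate 5 (22.5%), against 43.8%, 35.4% and 20.8% of all called genes. The order replicate 2, 4 and 5 from high to low was seen in 12 members (30%), against 28.8% of all called genes. As medians over the 40 members, each array minus the mean of the other arrays came to 0.17 in replicate 2, -0.09 in replicate 4 and -0.11 in replicate 5, against 0.12, 0.05 and -0.19 over all called genes. The 40 include 5 prefix-only genes, with a median of 0.47 in replicate 2. Over the 35 called family genes the medians were 0.08, -0.05 and -0.12, and 15 (42.9%) were highest in replicate 2. With quantile normalization the medians of the 40 members were 0.10, -0.15 and 0.01, so the sign in replicate 5 depended on the scaling. The highest and the lowest array of each of the 12 called members with the largest differences were the same as deposited and with quantile normalization. Other scalings could hardly change them. Each of the 12 has 1 probe set, so the mean of probe sets gave the same values. Centring used array medians of 6.09, 6.11 and 6.21, which differ little.

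In replicate 2 the called members furthest above the other arrays were Klf7 (by 1.52), Jun (1.09), Dusp1 (0.93), Zfp36l1 (0.88) and Egr1 (0.66). Dusp11 (-0.94), Btg2 (-0.56) and Klf10 (-0.52) were furthest below there. Of the other immediate early list, Ccn1 (1.37), Nr4a1 (1.12), Errfi1 (0.89), Nr4a2 (0.85) and Rhob (0.82), a small GTPase gene, also stood higher in replicate 2. Of its 19 called genes 11 were highest on that array (57.9%, against 43.8% of all called genes). The genes above were named for their distance from the other arrays in replicate 2 and do not stand for the families. The 35 called family genes had a median of 0.08 there, against 0.12 over all called genes. Most endothelial markers were also higher in replicate 2. Of 11 called endothelial markers 10 were highest in replicate 2, with a median of 0.89 above the other arrays, and Pecam1, the platelet and endothelial adhesion gene, had 9.03, 6.87 and 6.79. The summed log2 signal of all 15 measured endothelial markers was 119 in replicate 2, 106 in replicate 4 and 105 in replicate 5. Kdr, Tek, Tie1 and Eng, defining receptors of the type, were not called. Tek (6.408, 7.110 and 6.627) and the called Ehd3 (6.575, 6.731 and 6.839) were lowest in replicate 2. The other measured endothelial markers were highest there. The part of endothelial RNA in the replicate 2 values was not tested.

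Other marker lists shifted less in replicate 2. The median over called markers was 0.33 for renin cells, 0.28 for smooth muscle and mural cells, 0.25 for proximal tubule, 0.05 for thick ascending limb and 0.61 for the 2 called of 7 podocyte markers. Of 13 macrophage and dendritic markers 3 were called, and all 3 were lowest in replicate 2, where the summed log2 signal of the list was 75.9, against 77.7 in replicate 4 and 79.2 in replicate 5. None of 10 lymphocyte and neutrophil markers was called by limma (0 also at an unadjusted p under 0.05). In replicate 5 the called members furthest below the other arrays were Klf7 (-1.49), Dusp22 (-1.03), Jun (-0.91), Dusp28 (-0.89) and Dusp19 (-0.80), and Btg1 was furthest above (0.83). The tubule markers were also lower in replicate 5, with medians of -0.59 for proximal tubule and -0.57 for thick ascending limb, and their part in these values was not tested.

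**Figure D4:**
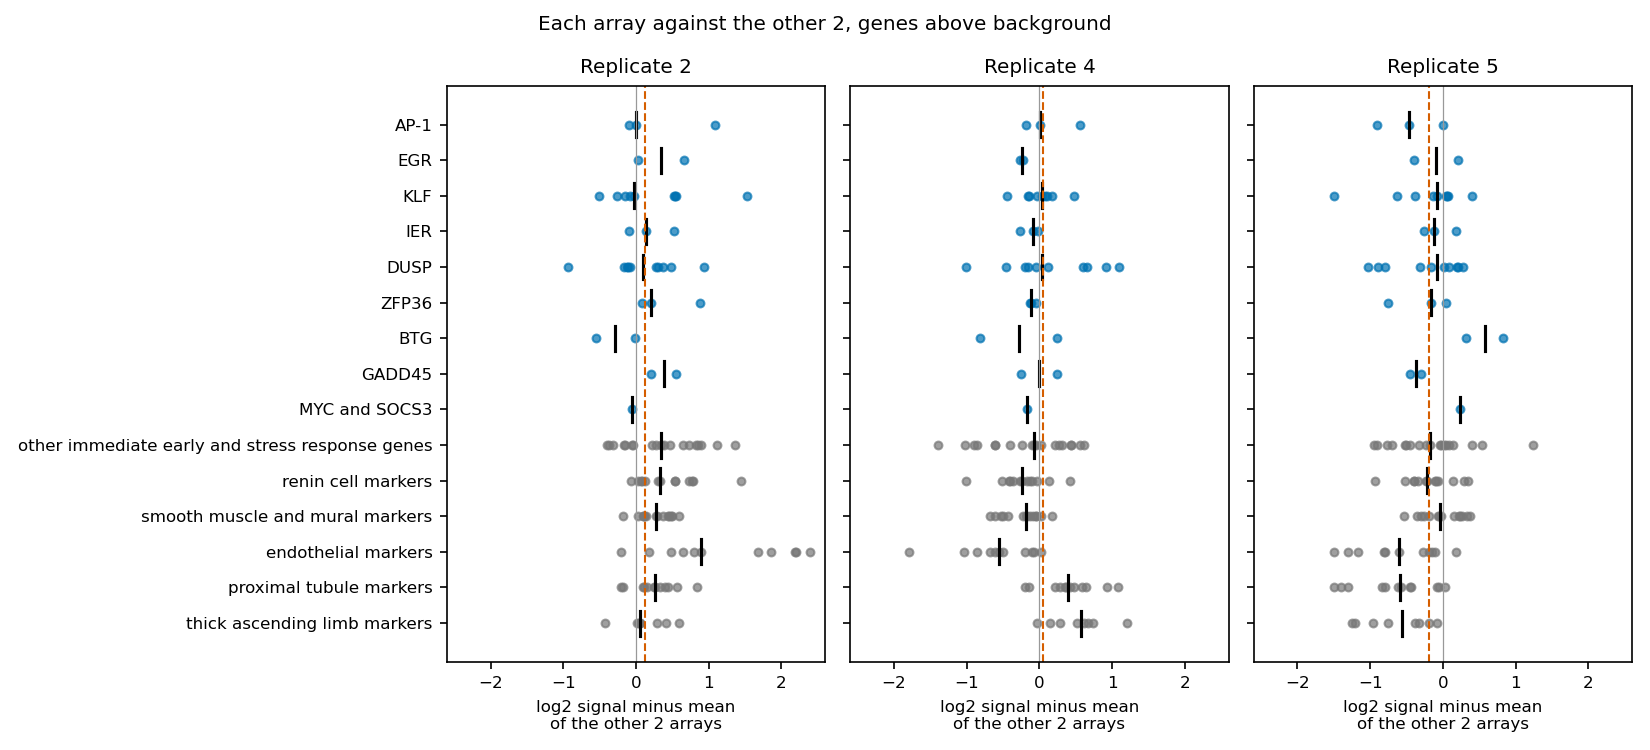
Log2 signal on each array minus the mean of the other 2 arrays (x axis, log2 units) for genes above background, by family (blue) and by list (grey). Points are genes, black bars are medians, and the orange dashed line is the median of all called genes (0.12, 0.05 and -0.19 in replicates 2, 4 and 5). Endothelial markers lie furthest right in replicate 2 (median 0.89). Single members such as Klf7 and Jun also lie far right there, while the family medians lie between -0.28 (BTG) and 0.38 (GADD45).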

How the data were processed

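The authors deposited 1 value per probe set and array, in log2 units by inference from the values (2.21 to 13.96, medians 6.09, 6.11 and 6.21). The submitters' processing notes name the software, Affymetrix Expression Console. The sources used here give neither its version nor the summary and normalization methods. Gene symbols came from the annotation table of the platform, which gave 1 symbol to 21789 of 35557 probe sets, and each gene was represented by its brightest probe set. Each array was given a background level, the 95th percentile over 1027 olfactory receptor genes. Signals minus this level were fitted across all genes with limma 3.58.1 in R 4.3.3 (intercept, eBayes with trend, one-sided test, Benjamini-Hochberg adjustment over 19938 genes, threshold 0.05). The fit was tested on simulated data. Differences between arrays of the single group were described without a test.

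The members and lists were chosen with earlier results of these data known. Every member could be named. Values on each array are given for up to 6 called members per family with the highest means, for the lowest member, and for the 12 called members that differed most between arrays. Of the other lists the text gives up to 4 called genes with the highest means, the lowest, and those that differed most between arrays, with further genes chosen after their values were seen. Promoters came from RefSeq's GRCm38.p6, and the 4 shown were chosen after their motifs and levels were seen. Python 3.11.15, pandas 2.3.3, numpy 2.4.6 and matplotlib 3.10.9 were used.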

Additional observations from a re-analysis of the deposited data

How the results depend on the processing

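The counts rested on the background level. With the 99th percentile of olfactory receptor genes 11 of the 78 members, 9 of the 71 family genes, 31 of the related genes and 3303 of all genes were called. With the level from vomeronasal receptor genes the counts were 67, 60, 103 and 13140, and with the level from keratin-associated protein genes, which lay at 8.41 to 9.15, they were 0, 0, 4 and 709. With the 99th percentile and the keratin-associated protein levels, members and family genes were called in smaller shares than all genes. The higher share of called members thus held with some levels only. With the 90th percentile 53 members were called, against 9964 of all genes, and the gains included Fos, Junb and Ier2. With the mean of probe sets the counts were 39 members and 7391 of all genes, with no variance trend 41 and 7438, and with quantile normalization 40 and 7524. Leaving out 1 replicate gave 28 to 43 members, 24 to 38 family genes, 53 to 69 related genes and 6051 to 7806 of all genes, fewest each time without replicate 2. The median SD of the called members then ran from 0.14 to 0.30. The median shift of the members in replicate 5 was 0.01 with quantile normalization, against -0.11 as deposited, and the cause was not tested.

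Called members whose mean fell under a stricter level are given with their distance from it in log2 units. With the 99th percentile they were Egr1 (-0.08), Klf10 (-0.14), Klf16 (-0.08), Klf15 (-0.26), Ier5 (-0.20), Ier5l (-0.31), Dusp6 (-0.36), Dusp7 (-0.31), Dusp9 (-0.16), Dusp16 (-0.02), Dusp14 (-0.32), Dusp19 (-0.08), Dusp28 (-0.14), Zfp36l2 (-0.24), Socs3 (-0.42) and Zfp366 (-0.35). With the keratin-associated protein level they were Fosl2 (-1.40), Jun (-0.31), Jund (-0.99), Egr1 (-1.55), Egr3 (-1.45), Klf2 (-0.96), Klf6 (-0.48), Klf3 (-0.68), Klf9 (-1.34), Klf10 (-1.60), Klf14 (-1.04), Klf16 (-1.54), Klf15 (-1.72), Ier3 (-1.03), Ier5 (-1.66), Ier5l (-1.77), Dusp6 (-1.83), Dusp7 (-1.78), Dusp9 (-1.62), Dusp16 (-1.48), Dusp11 (-0.70), Dusp14 (-1.78), Dusp19 (-1.55), Dusp22 (-0.62), Dusp28 (-1.61), Zfp36 (-0.33), Zfp36l1 (-0.56), Zfp36l2 (-1.71), Btg1 (-0.83), Btg2 (-0.44), Gadd45a (-0.53), Gadd45b (-1.39), Socs3 (-1.88), Zfp362 (-1.12), Zfp366 (-1.82), Zfp367 (-0.51) and Gadd45gip1 (-1.25). With the mean of its probe sets Socs3 was at -0.01. These follow from the height of the level and, for Socs3, from its dimmer probe set. No paired analysis was possible because the series has 1 group. With 3 arrays, genes close to the background level cannot be told from it.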
